A study of Rattus norvegicus with 25 samples.

Results

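Esophageal epithelium of 5 male F344 rats that received N-nitrosomethylbenzylamine (NMBA) and delta-tocopherol (NMBA+Delta-T rats 1 to 5, called delta rats here) was compared with that of 5 male F344 rats on a normal diet that received no NMBA (Control rats 1 to 5). The arrays were taken by their titles, 1 array per rat, and made up 10 of the 25 arrays of the study. The other groups, also of 5 rats each, received NMBA alone or NMBA with alpha-tocopherol or with a mixture enriched in gamma-tocopherol. Total RNA was labelled with Cy3 and measured on 1-colour Agilent rat expression arrays. Delta rats differed from Control rats in 2 agents, NMBA and delta-tocopherol, and since none of the 5 groups received delta-tocopherol without NMBA, the effects of the 2 agents cannot be told apart here. The sources used here give no ages, doses, routes or times.

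NMBA is a nitrosamine that cytochrome P450 enzymes convert to a species that alkylates DNA, and repeated dosing produces squamous tumours of the rat esophagus. The esophageal lining is a stratified squamous epithelium, in which basal cells with the keratins Krt5 and Krt14 divide and suprabasal cells with Krt4 and Krt13 differentiate. Delta-tocopherol is a form of vitamin E, a fat-soluble antioxidant, with fewer methyl groups on its chromanol ring than alpha-tocopherol. The comparison asks what remained different from untreated epithelium in rats that received NMBA together with delta-tocopherol. Where it helps, the difference between rats given NMBA alone and the same Control rats is set beside it. Those 2 differences share the Control rats, so the direct contrast of delta rats with NMBA rats was used to test whether they differed.

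The labelled tissue was checked against marker genes. Of 14 squamous epithelial markers 12 were on the array, and all 12 were well above background on all 10 arrays. Their summed level was 130 to 186 times the array's 75th percentile in delta rats (median 170), and 132 to 238 times in Control rats (median 216). Smooth muscle, skeletal muscle and fibroblast markers were also above background on all 10 arrays, so the samples held RNA of other cell types. In such bulk RNA, fewer cells of a type and less RNA per cell cannot be told apart. Between 74.7% and 77.7% of spots were well above background in delta rats and between 74.4% and 76.1% in Control rats. Delta rats 1 to 3 were on slide 1, delta rats 4 and 5 and Control rat 1 on slide 2, and Control rats 2 to 5 on slide 3. Only slide 2 held both groups, so for the remaining rats slide and group cannot be told apart. Below, "within slide 2" means the mean of delta rats 4 and 5 minus Control rat 1. Values per rat are log2 signals relative to the 75th percentile of the array, so that 0 is the 75th percentile and each unit is a doubling. Differences are log2 ± SE with n = 5 rats per group, and adjusted p-values are those of limma with Benjamini-Hochberg adjustment over all genes tested.

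A small set of genes stood apart from Control in delta rats, led by the hormone gene Gip, the hair keratin gene Krt82 and the chemokine gene Cxcl10. Of 12343 genes, 24 passed the test at an adjusted p under 0.05 (0.194%), of which 21 were higher (0.17%) and 3 lower (0.0243%). The fitted change was at least 2-fold in 15 of the 24, and in 22 of them no delta rat overlapped a Control rat. Over all genes tested the groups did not overlap in 420 (3.4%), with 235 higher (1.9%) and 185 lower (1.5%). At an unadjusted p under 0.05 there were 705 of the 12343 genes higher and 626 lower, which are to be set beside the list counts below. Pairs of a delta and a Control array differed by a median SD of 0.680 (log2, all genes, 25 pairs), against 0.644 for 20 pairs from the same group. The count depended on single rats. It was 81 without Control rat 1, with 32 genes higher and 49 lower, and 15 without delta rat 5 and likewise 15 without Control rat 4. Of the 24 genes, 13 passed in each of the 10 fits with 1 rat left out. All 24 kept their direction within slide 2, where Gip stood at 6.01, Krt82 at 4.47 and Fgf13 at 3.24. Control is 1 rat there, Control rat 1, which had the lowest squamous (132) and skeletal muscle (26.0) marker sums of the Control rats. Within slide 2, 36 of 37 muscle genes were positive, against 13 in the main fit. Over all genes tested 7057 of 12343 were positive there, against 5687. The part of that rat's cell content in the values within slide 2 was not tested. The spread in the fit with slide as a block comes from rats that share both a group and a slide, Control rats 2 to 5 on slide 3 among them.

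**Figure D1:**
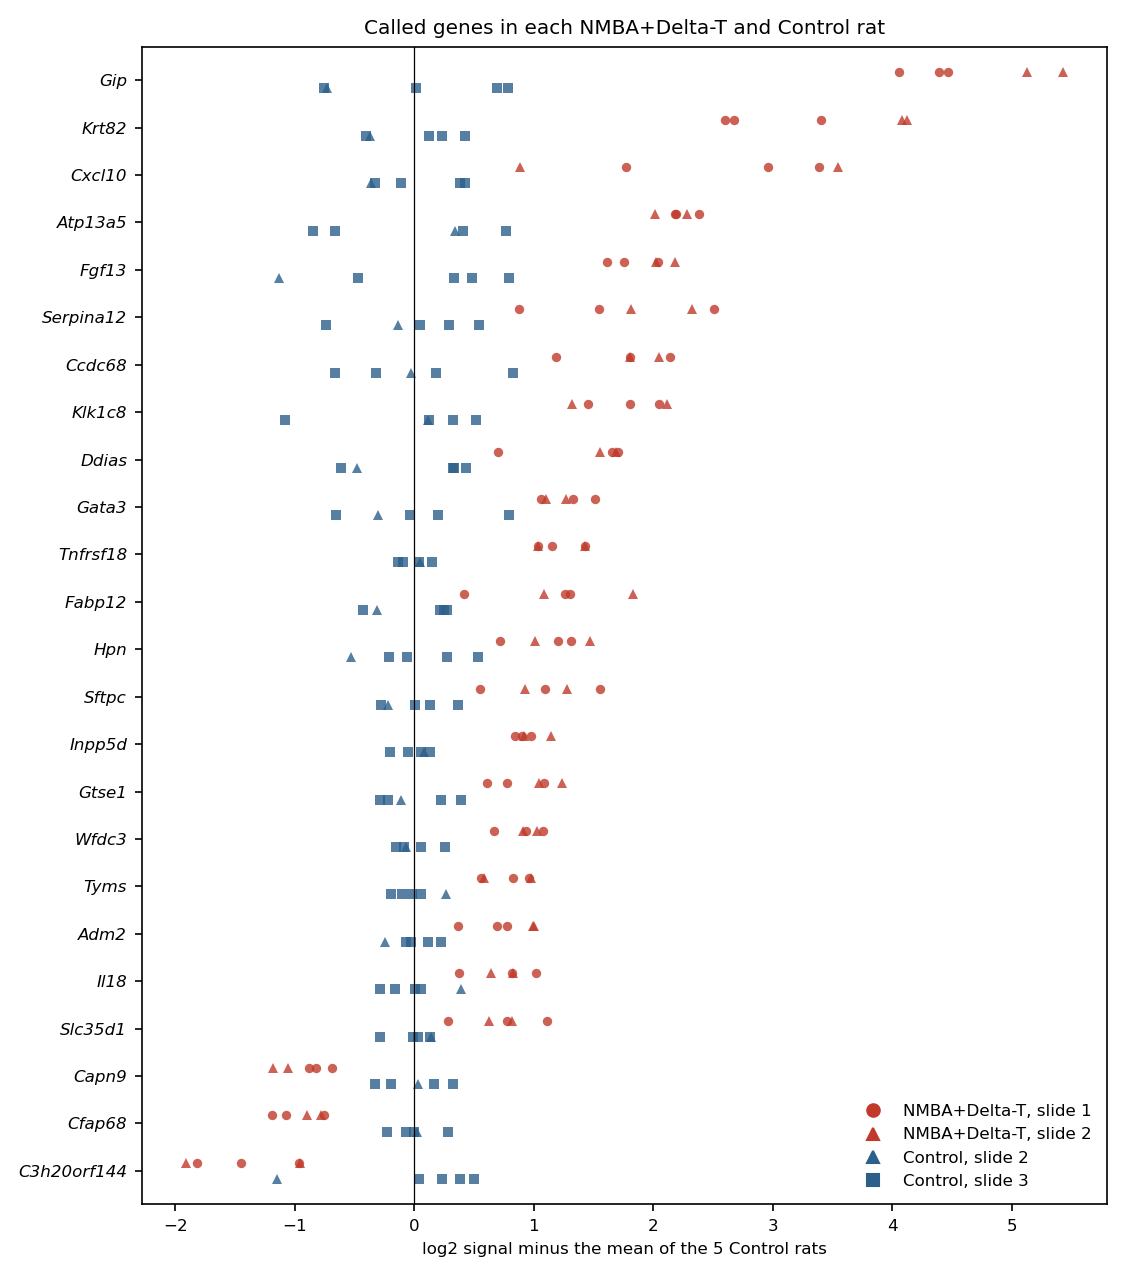
Log2 signal of each rat minus the mean of the 5 Control rats (x axis, log2 units) for the 24 genes past the test (rows), with delta rats in red above Control rats in blue and the marker shape giving the slide. Delta and Control points are separate in 22 genes and overlap in Il18 and C3h20orf144.

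Gip encodes glucose-dependent insulinotropic polypeptide, an incretin hormone made by endocrine cells of the upper intestine. It gave −3.09, −3.01, −3.43, −2.05 and −2.35 in delta rats 1 to 5, against −8.21, −7.47, −8.24, −6.79 and −6.70 in Control rats 1 to 5. Every delta rat lay more than 3 log2 units above every Control rat, and the highest values were those of delta rats 4 and 5. The fitted difference was 4.69 ± 0.34 (adjusted p = 1.36e-08). The probe was well above background on 5 delta arrays but on only 2 Control arrays, so the size of the difference depends on how dim signals are treated. With a normexp background correction, which adds the same offset to every spot, the difference was 2.58. In NMBA rats the difference from Control was 5.57, and the contrast of delta with NMBA rats, −0.88 ± 0.34 (95% interval −1.58 to −0.18), did not pass after adjustment (adjusted p = 0.142). Its receptor gene Gipr ran the other way: −3.22, −2.74, −2.58, −2.91 and −2.58 in delta rats, against −1.73, −2.40, −2.30, −1.14 and −1.30 in Control rats. The groups did not overlap, but the difference of −1.03 ± 0.33 did not pass (adjusted p = 0.23). Within slide 2 Gip stood at 6.01 and Gipr at −1.02.

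The promoter of Gip is shown because the gene had the largest difference, and that of Cxcl10 because it was the only chemokine gene past the test. Both windows are from RefSeq (assembly GRCr8) and run from 250 bases before to 50 bases after the start of the gene, on the plus strand, at chr10:81464820-81465119 for Gip and chr14:15988816-15989115 for Cxcl10. Capitals in Gip mark AGATAA, a motif bound by GATA factors, and in Cxcl10 an interferon-stimulated response element core (GAAA, any 2 bases, GAAA) and an NF-κB core (GGG, any 3 bases, TTCC).
Gip: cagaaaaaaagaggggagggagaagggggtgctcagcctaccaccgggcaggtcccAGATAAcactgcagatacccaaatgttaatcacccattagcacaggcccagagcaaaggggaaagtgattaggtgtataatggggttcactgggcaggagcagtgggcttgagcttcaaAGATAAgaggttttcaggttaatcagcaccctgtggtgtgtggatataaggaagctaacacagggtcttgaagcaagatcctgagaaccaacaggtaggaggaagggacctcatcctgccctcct
Cxcl10: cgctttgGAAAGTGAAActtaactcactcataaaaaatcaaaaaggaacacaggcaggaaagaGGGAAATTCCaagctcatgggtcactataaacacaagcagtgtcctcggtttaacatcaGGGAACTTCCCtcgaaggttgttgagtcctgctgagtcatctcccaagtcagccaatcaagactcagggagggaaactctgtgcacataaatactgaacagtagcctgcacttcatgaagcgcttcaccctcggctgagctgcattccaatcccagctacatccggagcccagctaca
Motifs were searched on both strands, and TGANTCA (N being any base) and TATAAA were searched too but are not marked. In Gip, AGATAA began at −194 and −75 from the gene start. In Cxcl10, the interferon-stimulated core began at −243 and the NF-κB core at −187, −128 and −127, the last 2 being overlapping matches on opposite strands. Over 33469 promoter windows of the same length, 11.58% held AGATAA, 3.92% the interferon-stimulated core and 5.37% the NF-κB core. Of the 24 called genes 20 had a promoter entry, and 4 of these held AGATAA (Gip, Atp13a5, Il18 and Serpina12), 1 held the interferon-stimulated core (Cxcl10) and 2 held the NF-κB core (Cxcl10 and C3h20orf144). Of the unmarked motifs, TGANTCA was in 7.33% of the windows and in 4 of the 20 genes (Cfap68, Cxcl10, Fgf13 and Il18). TATAAA was in 14.22% of the windows and in 1 of the 20 (Cxcl10). In Cxcl10 these began at −96 and −162. A match is a description of the sequence and does not show that a factor binds there.

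Among structural and secreted products, Krt82, a type II keratin of the hair cuticle, had the second largest rise. It gave −4.68, −5.41, −5.48, −4.01 and −3.97 in delta rats, against −8.46, −7.85, −8.49, −7.66 and −7.96 in Control rats. The probe was well above background on all 5 delta arrays and on no Control array (fitted log2 difference 3.38 ± 0.36, adjusted p = 1.22e-05). With dim Control values raised to a floor, the rise was 8.33-fold. That floor sets the Control rats at their own signal or, where it is higher, at the lowest signal well above background on the array. It gives no minimum for other background treatments, since normexp correction gave a log2 difference of 1.23. In NMBA rats the difference was 3.64, and delta and NMBA rats differed by −0.27 ± 0.36 (adjusted p = 0.725).

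Fgf13, an intracellular fibroblast growth factor homologue that acts on sodium channels, gave −2.99, −3.13, −2.71, −2.56 and −2.72 in delta rats, against −5.88, −4.26, −5.21, −3.95 and −4.41 in Control rats. It rose by 1.92 ± 0.26 (adjusted p = 4.55e-04), and a further probe of the gene stood at 1.46. Atp13a5, a membrane ATPase of the P5 family, gave −4.62, −4.63, −4.43, −4.54 and −4.81 in delta rats, against −6.48, −7.67, −6.05, −7.49 and −6.41 in Control rats. It rose by 2.21 ± 0.29 (adjusted p = 3.49e-04), and was above background on 5 delta and 2 Control arrays. In Fgf13 and Atp13a5 the delta rats lay close together, while the Control rats spread over more than 1 log2 unit, and the groups did not overlap. Both passed in each of the 10 fits with 1 rat left out.

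The adipokine and protease inhibitor gene Serpina12 (vaspin) gave 0.23, 1.20, −0.43, 1.01 and 0.50 in delta rats, against −1.45, −2.05, −1.26, −1.02 and −0.77 in Control rats. It rose by 1.81 ± 0.31 (adjusted p = 0.00605). Klk1c8, a kallikrein-related serine protease, rose by 1.75 ± 0.30 (adjusted p = 0.00605), with delta rats between −4.18 and −3.39 and Control rats between −6.58 and −4.98. Ccdc68, a protein of the centriole's appendages, was above background on 4 delta arrays and no Control array. It rose 2.90-fold with the floor used for Krt82 (fitted 1.80 ± 0.34, adjusted p = 0.0198). Hpn, the membrane serine protease hepsin, rose by 1.14 ± 0.23 (adjusted p = 0.0362), with 1.12 from a further probe. Fabp12, a fatty acid-binding protein, rose by 1.18 ± 0.25 (adjusted p = 0.0492).

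Sftpc, the surfactant protein C of the lung's alveolar cells, rose by 1.08 ± 0.17 (adjusted p = 0.00312), from a low level in both groups: −4.99 to −3.98 in delta rats and −5.81 to −5.17 in Control rats. Wfdc3, of a family of protease inhibitors, rose by 0.92 ± 0.13 (adjusted p = 7.18e-04). It was named after its values were seen, as were Gtse1, Il18, Slc35d1 and C3h20orf144, because these called genes fall outside the rule for named genes. Within slide 2 the differences were 4.47 in Krt82, 3.24 in Fgf13, 1.81 in Atp13a5, 2.20 in Serpina12, 1.60 in Klk1c8, 1.95 in Ccdc68, 1.77 in Hpn, 1.77 in Fabp12, 1.32 in Sftpc and 1.04 in Wfdc3. The normexp correction gave smaller values in the dimmer genes, with 1.23 in Krt82, 1.07 in Atp13a5 and 0.43 in Ccdc68, the last no longer past the test. Hpn passed in 4 of the 10 fits with 1 rat left out, as did Ccdc68, and Fabp12 passed only without delta rat 3.

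Of the immune genes, Cxcl10 was furthest from Control. It encodes an interferon-induced ligand of Cxcr3, the chemokine receptor of activated T cells. Cxcl10 gave −1.82, −3.43, −2.25, −1.66 and −4.32 in delta rats, against −5.56, −5.54, −4.78, −4.82 and −5.32 in Control rats. Delta rats 1, 3 and 4 were high, delta rats 2 and 5 lay nearer to the Control rats, and the groups did not overlap. The difference was 2.51 ± 0.53, or 5.69-fold (adjusted p = 0.0475). It passed in 3 of the 10 fits with 1 rat left out, those without delta rat 2, delta rat 5 or Control rat 1. In NMBA rats the difference was 4.35, and delta and NMBA rats differed by −1.84 ± 0.53, which did not pass (adjusted p = 0.0557).

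Gata3, a transcription factor of T cells and of stratified epithelia, gave −4.28, −3.83, −4.02, −4.08 and −4.24 in delta rats, against −5.65, −6.00, −4.55, −5.38 and −5.15 in Control rats. It rose by 1.25 ± 0.22 (adjusted p = 0.0101). Tnfrsf18 (GITR), a co-stimulatory receptor best known from regulatory T cells, gave −1.82, −1.43, −1.71, −1.82 and −1.43 in delta rats, against −2.81, −2.95, −2.71, −2.99 and −2.82 in Control rats. It rose by 1.21 ± 0.19 (adjusted p = 0.00182), and more than 0.8 log2 units separated the groups. Inpp5d (SHIP1), a lipid phosphatase of blood cells, rose by 0.96 ± 0.14 (adjusted p = 0.00155), with delta rats between −1.18 and −0.88 and Control rats between −2.23 and −1.89. A further Inpp5d probe stood at 0.46, and with the mean of both probes the gene did not pass.

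Il18, an epithelial cytokine of the interleukin-1 family, rose by 0.74 ± 0.14 (adjusted p = 0.0196). Its groups overlapped, since delta rat 1 (0.66) lay just below Control rat 1 (0.67). Within slide 2 the differences were 2.57 in Cxcl10, 1.49 in Gata3, 1.18 in Tnfrsf18, 0.95 in Inpp5d and 0.35 in Il18. Gata3, Tnfrsf18 and Inpp5d passed in each fit with 1 rat left out, and Il18 in 6 of 10.

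None of 36 interferon-induced genes passed in limma (0 called; 3 higher and 1 lower at an unadjusted p under 0.05), 20 of 36 lay above Control, and their median difference was 0.08 beside −0.03 over all genes tested. In NMBA rats 9 of the 36 were called, beside 1.55% of all genes tested, and the median was 0.65. That share applies beside the NMBA counts of the lists below too. Isg15, Irf7, Cxcl9, Cxcl11, Cd3d, Cd3e, Gzmb and Cd74 were followed from the NMBA comparison. Their contrasts with those same NMBA rats are therefore not independent of how they were chosen. Isg15, a ubiquitin-like antiviral protein, gave 0.77, 0.03, 0.21, −0.47 and −0.18 in delta rats, against −0.92, −1.63, −1.14, −0.61 and −0.79 in Control rats. The groups did not overlap, but the difference of 1.09 ± 0.30 did not pass (adjusted p = 0.133). It was 2.37 in NMBA rats, and delta and NMBA rats differed by −1.28 ± 0.30 (adjusted p = 0.0297). Irf7, a transcription factor of the interferon response, stood at 0.27 ± 0.20 in delta rats and 1.29 in NMBA rats, with −1.02 ± 0.20 between them (adjusted p = 0.0192). Oas1a, an antiviral RNA sensor, stood at 0.95 ± 0.37 in delta rats and 2.20 in NMBA rats (−1.25 ± 0.37 between them, adjusted p = 0.0614). Within slide 2 Isg15 stood at 0.60 and Oas1a at 0.12. The mean of the 36 genes, relative to Control, was highest in delta rats 1 (0.505) and 3 (0.254), both on slide 1, and lay between −0.166 and −0.0291 in the other delta rats, against −0.147 to 0.164 in Control rats.

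Among the Cxcr3 ligands, Cxcl9 gave 0.49, −1.16, 0.10, −0.65 and −2.37 in delta rats, against −2.06, −2.75, −2.32, −1.65 and −1.78 in Control rats. Delta rat 5 lay within the Control range. Neither Cxcl9 (1.39 ± 0.51, adjusted p = 0.31) nor Cxcl11 (1.27 ± 0.43, adjusted p = 0.247) passed, and Cxcr3 itself stood at 0.35 ± 0.42. In the contrast with NMBA rats Cxcl9 was lower by −2.20 ± 0.51 (adjusted p = 0.0297) and Cxcl11 by −1.98 ± 0.43 (adjusted p = 0.0266). Ccl22, a chemokine of Ccr4, had delta rats at −4.06 to −3.77 and Control rats at −5.70 to −4.38, a difference of 0.85 ± 0.23 that did not pass (adjusted p = 0.126). It was the CC chemokine with the largest positive difference, and 0 of 23 genes of that list passed (1 higher and 0 lower at an unadjusted p under 0.05, median −0.10).

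Of 27 T cell genes only Gata3 passed, 15 lay above Control and their median was 0.05, against 12 called and a median of 1.04 in NMBA rats. Cd3d, a subunit of the T cell receptor complex, gave −1.29, −2.36, −1.88, −2.42 and −2.81 in delta rats, against −2.85, −3.07, −1.52, −2.63 and −2.24 in Control rats. The groups overlapped (0.31 ± 0.45), and delta rats were lower than NMBA rats by −1.93 ± 0.45 (adjusted p = 0.0297). Cd3e stood at 0.20 ± 0.43, and the cytotoxic genes Gzmb (granzyme B) at 0.36 ± 0.45 and Ctsw (cathepsin W) at 0.91 ± 0.42, all 3 overlapping Control. Their contrasts with NMBA rats were −1.91, −1.98 and −1.90 (adjusted p = 0.0297, 0.0297 and 0.0283). With the mean of its kept probes Gzmb stood at 0.60 against Control. Cd27, a co-stimulatory receptor, was above background on 3 delta arrays and no Control array. It was 1.93-fold higher with the floor used for Krt82, but did not pass (adjusted p = 0.434). None of 10 cytotoxic genes passed (0 called in limma, 1 higher at an unadjusted p under 0.05, median 0.20), against 5 called and a median of 1.70 in NMBA rats. The cytotoxic median in delta rats was 0.46 with only the delta rats of slide 1 and −0.11 with only those of slide 2. Within slide 2 it was −0.46.

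Of 10 MHC class II genes 0 passed in limma, and 0 also at an unadjusted p under 0.05, with a median of −0.09. Cd74, the invariant chain of MHC class II, gave 3.25, 2.96, 3.08, 2.74 and 2.33 in delta rats, against 3.23, 2.87, 3.35, 2.98 and 3.24 in Control rats. Its difference was −0.26 ± 0.18, and 0.68 in NMBA rats, with −0.94 ± 0.18 between delta and NMBA rats (adjusted p = 0.0192). Ciita, the regulator of class II genes, stood at 0.35 ± 0.24. Tap1, the peptide transporter of class I presentation, had no overlap between groups (0.55 ± 0.21) but did not pass (adjusted p = 0.337). It had the largest difference of 16 class I presentation genes, of which 9 lay below Control, with a median of −0.05 and 0 called. Delta rats 4 and 5, on slide 2, had the lowest class II means of the delta group at −0.263 and −0.469. The signs of Cd3e (−0.57), Cxcr3 (−0.01), Irf7 (−0.22) and Ctsw (−0.60) were reversed within slide 2.

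In the list of genes called in NMBA rats against Control, 191 in all (1.55%, 161 of them higher, 1.3%), 19 were also called in delta rats against Control. Over all genes tested 24 of 12343 (0.194%) were called in delta rats. Both calls rest on the same 5 Control rats, so this overlap is partly built in and is given as a count only. The contrast of delta with NMBA rats called 307 genes (2.49%, 249 of them lower, 2.02%), among them 51 of the 191 as lower and 6 as higher. Of the 191, 116 were called neither against Control nor against NMBA rats. The 191 genes were chosen from the same NMBA rats, 161 of them as higher, so the lean to lower is not independent of that choice. Delta and NMBA rats shared no slide, and with slide as a block 1 gene was called in that contrast. Its count was 32, 102, 158 and 156 without delta rats 2, 3, 4 and 5, and 23, 16, 13 and 566 without NMBA rats 1, 2, 3 and 4. Centring each array on its median in place of the 75th percentile called 477 genes. The 5 genes called in delta rats but not in NMBA rats were Ddias, Tyms, Slc35d1, Capn9 and C3h20orf144. The direct contrast passed for Slc35d1, Capn9 and C3h20orf144 of these, and also for Adm2.

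**Figure D2:**
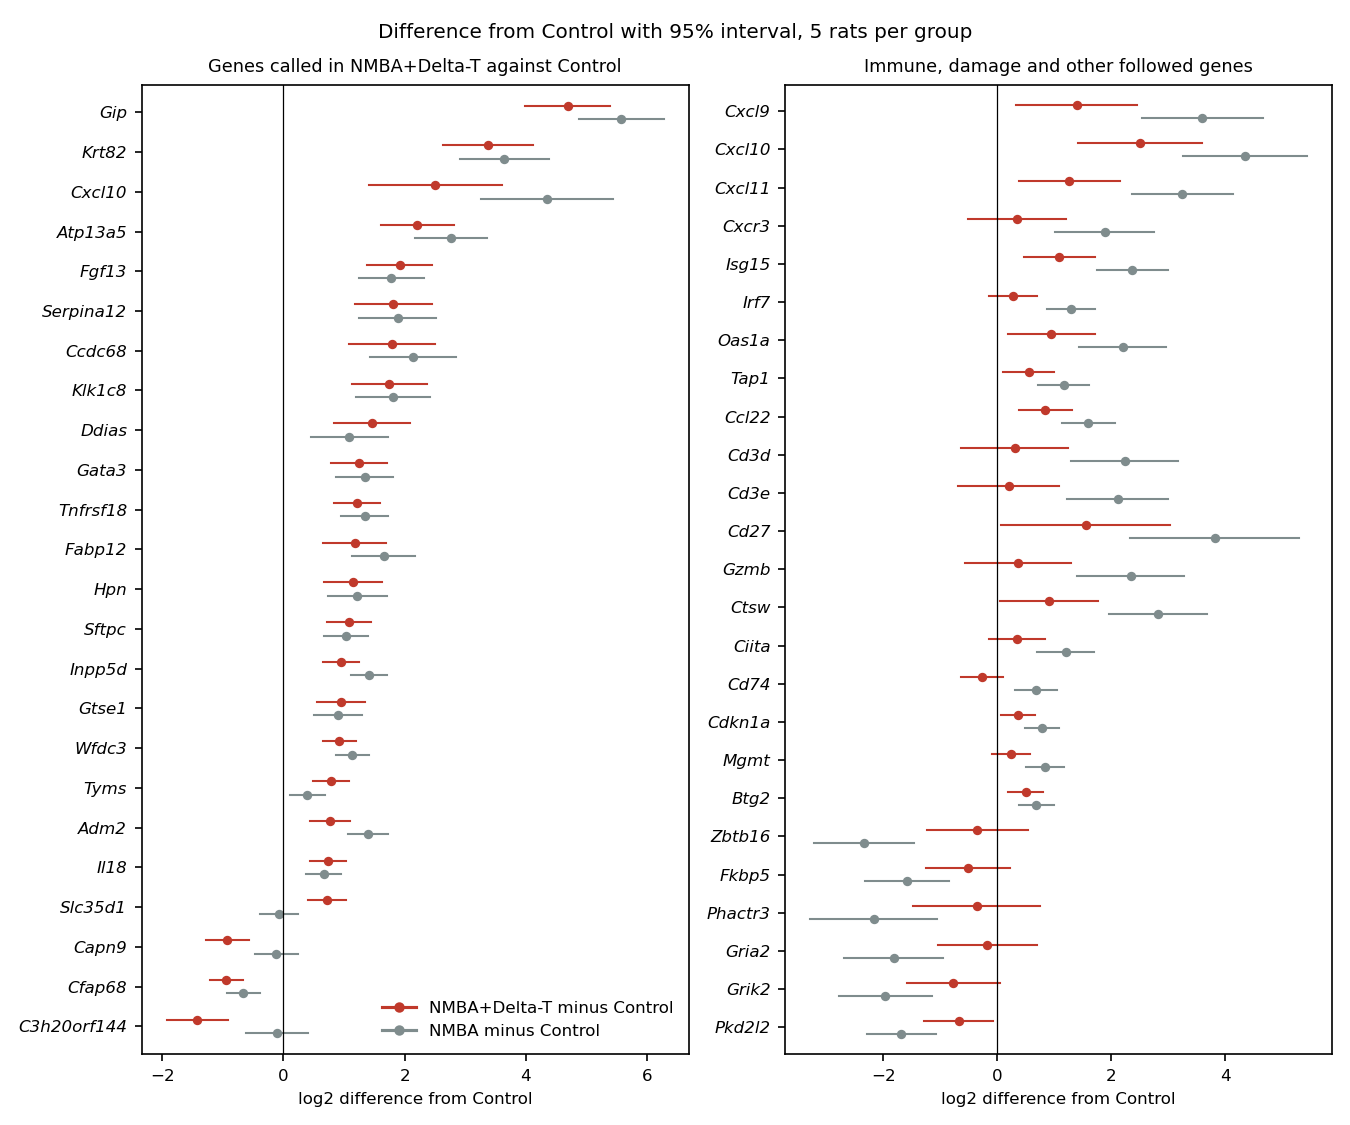
Log2 difference from the same 5 Control rats (x axis) in delta rats (red, upper) and NMBA rats (grey, lower), with 95% intervals from limma, for the 24 called genes (left) and for followed immune, damage and other genes (right). The delta and NMBA values are 3.38 and 3.64 for Krt82, 1.92 and 1.78 for Fgf13, 4.69 and 5.57 for Gip, and 0.31 and 2.24 for Cd3d.

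Several genes were followed because they were low in NMBA rats, so their contrast with those same NMBA rats is not independent of how they were chosen. Zbtb16, a glucocorticoid-induced zinc finger factor, gave −3.23, −2.64, −3.20, −2.53 and −2.21 in delta rats, against −2.23, −3, −2.70, −1.84 and −2.31 in Control rats. It stood at −0.34 ± 0.42 in delta rats and −2.33 in NMBA rats, and the contrast between them was 1.99 ± 0.42 (adjusted p = 0.0254). Fkbp5, a glucocorticoid-induced chaperone partner, stood at −0.51 ± 0.36 in delta rats and −1.58 in NMBA rats, a contrast of 1.07 ± 0.36 that did not pass (adjusted p = 0.09). Gria2, a glutamate receptor subunit, stood at −0.17 ± 0.42 and −1.81, with 1.64 ± 0.42 between delta and NMBA rats (adjusted p = 0.0402). Phactr3, an actin and phosphatase regulator, stood at −0.35 ± 0.54 in delta rats and −2.17 in NMBA rats (1.81 ± 0.54 between them, adjusted p = 0.063). The glutamate receptor subunit Grik2 (−0.77 ± 0.39) and the channel gene Pkd2l2 (−0.68 ± 0.29) did not pass against Control or NMBA rats. Of 20 glucocorticoid-related genes 0 passed against Control in limma (1 higher and 0 lower at an unadjusted p under 0.05), with a median of −0.10. That gene was Pdk4, a kinase that limits glucose oxidation, at 1.29 ± 0.52 (adjusted p = 0.353).

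Cell division genes lay slightly above Control as a list. All 45 DNA replication and mitosis genes had a positive difference, with a median of 0.42 beside −0.03 over all genes tested and 0.15 for the same list in NMBA rats. Only Tyms passed, and 9 of 45 were higher at an unadjusted p under 0.05, beside 705 of 12343 over all genes tested. Tyms, the thymidylate synthase that makes a DNA precursor, gave −1.27, −1.54, −1.14, −1.51 and −1.13 in delta rats, against −1.83, −2.05, −2.12, −2.29 and −2.21 in Control rats. No rats overlapped, and the difference was 0.78 ± 0.14 (adjusted p = 0.0117); it did not pass without delta rat 5 or without Control rat 4. It was 0.40 in NMBA rats and 0.39 ± 0.14 between delta and NMBA rats (adjusted p = 0.123). The mean of the 45 genes relative to Control was 0.293, 0.306, 0.583, 0.386 and 0.605 in delta rats, against −0.211, 0.318, 0.326, −0.588 and 0.155 in Control rats. The groups overlapped, and Control rats 4 and 1 were the lowest. Without Control rat 4 the median was 0.251 with 43 of 45 positive, and within slide 2 it was 0.765 with 44 of 45. Mki67, a nuclear antigen of cycling cells, stood at 0.06 ± 0.32, with normexp correction at −0.20 and with the mean of its kept probes at 0.46.

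**Figure D3:**
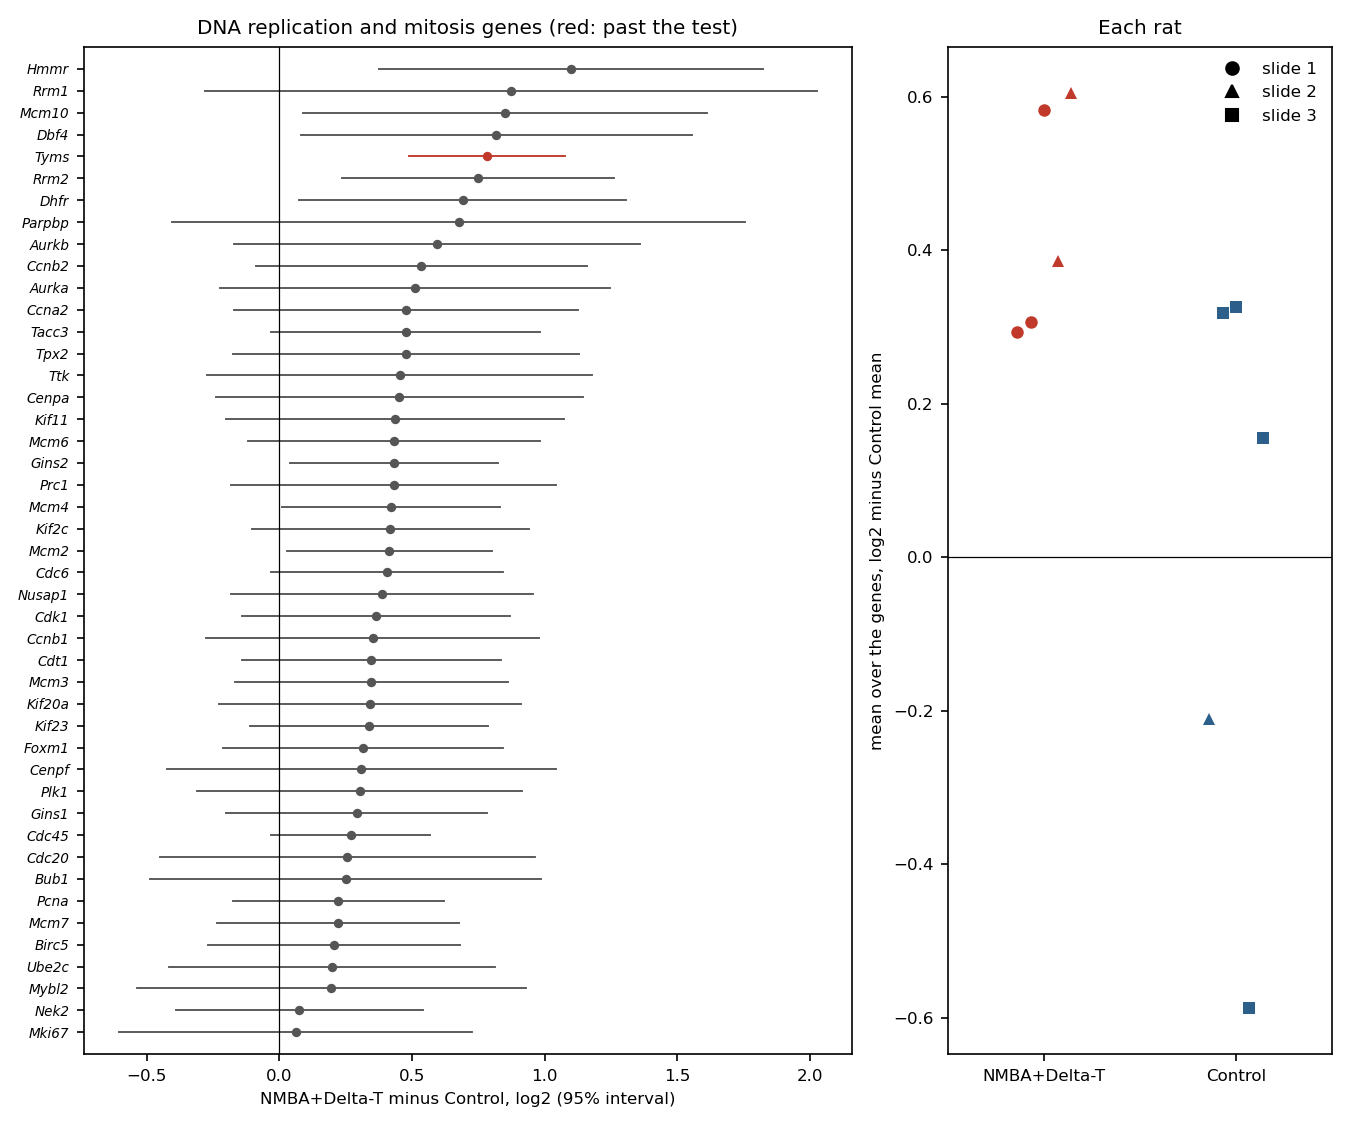
Left, the NMBA+Delta-T minus Control difference (log2, 95% interval) of each of 45 DNA replication and mitosis genes, with Tyms, the one past the test, in red. Right, the mean over those genes in each rat relative to the Control mean (log2), with delta rats between 0.293 and 0.605 and Control rats between −0.588 and 0.326.

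Gtse1, a microtubule-binding protein of the G2 and S phases that binds p53, rose by 0.95 ± 0.19 (adjusted p = 0.031), with delta rats between −2.82 and −2.19 and Control rats between −3.71 and −3.04. Ddias, a suppressor of apoptosis after DNA damage, gave −3.20, −4.20, −3.25, −3.35 and −3.22 in delta rats, against −5.38, −4.47, −4.57, −5.51 and −4.58 in Control rats. It rose by 1.46 ± 0.30 (adjusted p = 0.0458), with delta rat 2 well below the other delta rats. Within slide 2 the differences were 1.25 in Gtse1, 2.10 in Ddias and 0.51 in Tyms. Gtse1 passed in 5 of the 10 fits with 1 rat left out, and Ddias only without delta rat 2 or Control rat 2. In NMBA rats Gtse1 stood at 0.90 and Ddias at 1.09, and Ddias did not pass there (adjusted p = 0.0759).

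Of 24 p53 and damage genes 0 passed in limma (5 higher and 0 lower at an unadjusted p under 0.05), 17 lay above Control and the median was 0.17. Cdkn1a, the p21 inhibitor of cyclin-dependent kinases, gave 1.58, 1.66, 1.63, 1.75 and 1.87 in delta rats, against 0.85, 1.36, 1.44, 1.44 and 1.58 in Control rats. The groups lay next to each other without overlap, and 0.36 ± 0.14 did not pass (adjusted p = 0.345). With the mean of its kept probes Cdkn1a stood at 0.19. Btg2, an antiproliferative p53 target, stood at 0.50 ± 0.15 with no overlap (adjusted p = 0.183). Mgmt, which removes alkyl groups from guanine, stood at 0.25 ± 0.16 in delta rats and 0.84 in NMBA rats, with −0.59 ± 0.16 between them (adjusted p = 0.0476). None of 24 DNA repair genes passed (0 called in limma, 3 higher at an unadjusted p under 0.05, median 0.14), the largest differences being 0.99 ± 0.39 in Brca1 and 0.80 ± 0.33 in Fancd2, both dim. Of 21 G1 to S genes 0 passed (4 higher and 0 lower at an unadjusted p under 0.05, median 0.19), with Cdkn2a, which encodes cell cycle inhibitors, at 1.72 ± 0.54, the cyclin Ccne1 at 1.01 ± 0.30 and the cyclin Ccnd1 at 0.13 ± 0.17.

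Fosl1, a component of the AP-1 transcription factor, gave −2.92, −2.86, −3.35, −3.27 and −2.86 in delta rats, against −4.36, −5.69, −3.90, −4.85 and −3.91 in Control rats. The groups did not overlap, but 1.49 ± 0.37 did not pass (adjusted p = 0.103), and with normexp correction 1.32 did. It had the largest difference of 29 immediate early genes, of which 0 passed (3 higher and 0 lower at an unadjusted p under 0.05, median 0.14). Mmp10, the matrix protease stromelysin 2, stood at 1.41 ± 0.31 (adjusted p = 0.0605) and was above background on 4 delta arrays and 1 Control array. It passed without Control rat 3, at 1.71. Of 19 matrix metalloproteinase and inhibitor genes 0 passed in the fit of all rats (1 higher and 1 lower at an unadjusted p under 0.05), 16 lay below Control and the median was −0.29.

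Adm2 and Slc35d1 changed less than 2-fold. Adm2, a peptide of the calcitonin family and a target of the amino acid response, gave −1.47, −1.56, −1.89, −1.25 and −1.25 in delta rats, against −2.50, −2.13, −2.31, −2.28 and −2.02 in Control rats. It rose by 0.76 ± 0.16 (adjusted p = 0.0461), against 1.40 in NMBA rats, and the contrast of delta with NMBA rats was −0.63 ± 0.16 (adjusted p = 0.0381). Of 28 amino acid response genes it alone passed, and the median was 0.09. Slc35d1, a transporter of nucleotide sugars into the endoplasmic reticulum, rose by 0.72 ± 0.15 (adjusted p = 0.0475), while the difference was −0.07 in NMBA rats and the contrast between them 0.79 ± 0.15 (adjusted p = 0.0192). A further Slc35d1 probe stood at 0.03. Each passed in 2 of the 10 fits with 1 rat left out, and within slide 2 Adm2 stood at 1.25 and Slc35d1 at 0.58.

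The genes that fell were Cfap68, Capn9 and C3h20orf144. Cfap68, a protein of ciliary and flagellar axonemes, gave −0.77, −1.09, −1.21, −0.91 and −0.79 in delta rats, against 0.01, 0.26, −0.24, −0.01 and −0.09 in Control rats. More than 0.5 log2 units separated the groups, and the gene fell by 0.94 ± 0.13 (adjusted p = 5.58e-04), with −0.66 in NMBA rats. Capn9, a calpain protease of the digestive tract, gave −6.65, −6.46, −6.59, −6.83 and −6.95 in delta rats, against −5.73, −5.60, −6.09, −5.44 and −5.96 in Control rats. It fell by 0.93 ± 0.17 (adjusted p = 0.0141), with −0.12 in NMBA rats and −0.81 ± 0.17 between delta and NMBA rats (adjusted p = 0.0252). C3h20orf144 was above background on no delta array and on 4 Control arrays, all but Control rat 1. The fit put it 2.67-fold lower in delta rats (log2 −1.42 ± 0.25, adjusted p = 0.00735). Its difference was −0.11 in NMBA rats and −1.31 ± 0.25 between delta and NMBA rats (adjusted p = 0.0169). Within slide 2 the differences were −0.86 in Cfap68, −1.15 in Capn9 and −0.28 in C3h20orf144. With normexp correction Capn9 stood at −0.41 and C3h20orf144 at −0.33, both no longer past the test. Capn9 also did not pass without delta rat 4, without delta rat 5 or without Control rat 4.

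The keratins typical of this epithelium did not pass. Of 26 keratin and junction genes only Krt82 passed, and the median was 0.03. The suprabasal keratin Krt4 gave 4.39, 4.20, 4.07, 4.37 and 4.15 in delta rats, against 4.03, 4.80, 4.71, 4.95 and 4.44 in Control rats. Its difference was −0.35 ± 0.15 and 0.23 within slide 2, and Control rat 1 was the lowest of the Control rats. Its contrast with NMBA rats was −0.69 ± 0.15 (adjusted p = 0.0283). Krt13 stood at −0.41 ± 0.19, against 0.29 within slide 2. Basal Krt5 stood at 0.21 ± 0.15 and Krt14 at −0.16 ± 0.17, the sign of Krt14 turning with quantile normalization (0.17) and within slide 2 (0.43). Of 28 cornified envelope genes 0 passed in limma (1 higher and 0 lower at an unadjusted p under 0.05, median −0.09), with the envelope precursor Ivl at 0.60 ± 0.26.

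Genes that handle vitamin E and nitrosamines did not pass. Of 18 vitamin E transport and metabolism genes 0 were called in limma (2 higher and 0 lower at an unadjusted p under 0.05, median −0.09). Ttpa, the alpha-tocopherol transfer protein, gave −5.18, −4.40, −4.23, −3.96 and −3.92 in delta rats, against −5.02, −4.39, −4.93, −5.50 and −5.61 in Control rats. The difference in Ttpa was 0.75 ± 0.25 (adjusted p = 0.244) with overlapping groups, and the tocopherol-binding Sec14l2 stood at −0.04 ± 0.36. Of 14 aryl hydrocarbon receptor and P450 genes 0 passed (0 higher and 3 lower at an unadjusted p under 0.05), 11 lay below Control and the median was −0.25. Cyp1a1 had delta rats at −3.06 to −1.90 and Control rats at −1.76 to −1.19, without overlap (−0.74 ± 0.29, adjusted p = 0.343). Cyp2a3, an enzyme of a family that activates nitrosamines, stood at −0.74 ± 0.39. The antioxidant enzyme gene Nqo1 stood at −0.15 ± 0.14, with 0.14 under normexp correction, and 0 of 28 oxidant response and metallothionein genes passed (0 higher and 1 lower at an unadjusted p under 0.05, median −0.06). Rela, an NF-κB subunit, stood at 0.12 ± 0.23. Pparg, a lipid-sensing nuclear receptor, had no overlap between groups at 0.69 ± 0.17 (adjusted p = 0.101). It had the largest difference of 15 adipocyte genes, of which 11 lay below Control, with a median of −0.13 and 0 called.

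Of the lists of other cell types, the mast cell, endothelial, macrophage, matrix and B cell lists lay mostly below Control without a called member. All 13 mast cell genes had a negative difference (median −0.68), as did all 15 endothelial genes (median −0.28), 21 of 23 macrophage genes (median −0.35), 25 of 27 collagen and matrix genes (median −0.45) and 8 of 9 B and plasma cell genes (median −0.46). Over all genes tested 6656 of 12343 were negative, with a median of −0.03. Within slide 2, 1 of 13 mast cell, 5 of 15 endothelial, 3 of 23 macrophage, 6 of 27 matrix and 3 of 9 B cell genes were positive instead. In limma these 5 lists had 0 called genes, and at an unadjusted p under 0.05 there were 0 mast cell, 0 endothelial, 2 macrophage, 3 matrix and 4 B cell genes lower and 2 macrophage genes higher. The neutrophil and myeloid list also lay mostly below Control, with 11 of 13 genes lower (median −0.48) and 0 called. Within slide 2, 4 of its 13 genes were positive. The means of the mast cell genes were −0.125, −0.433, −0.202, −1.36 and −0.907 in delta rats, against −0.0379, −0.869, 0.881, 0.0431 and −0.0173 in Control rats. Delta rats 4 and 5 were low, and the groups overlapped. Without Control rat 3 the median of the mast cell genes was −0.377 with 11 of 13 lower, and without delta rats 4 and 5 it was −0.329. The matrix genes gave −0.142, −0.318, −0.651, −0.515 and −0.630 in delta rats, against −0.124, 0.0349, 0.140, −0.122 and 0.0720 in Control rats, without overlap, and the list had a median of −0.53 in NMBA rats.

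Among single genes of these lists, the macrophage receptor Trem2 gave −2.32, −1.98, −2.51, −2.46 and −2.39 in delta rats, against −1.03, −1.62, −1.38, −1.27 and −1.18 in Control rats. The groups did not overlap, and −1.04 ± 0.43 did not pass (adjusted p = 0.376), although it did when only the groups compared were fitted. Marco, a scavenger receptor of macrophages, was above background on no delta array and 4 Control arrays. The fit put it 2.03-fold lower (adjusted p = 0.229), and normexp correction gave a log2 difference of −0.42. Its contrast with NMBA rats was −1.23 ± 0.33 (adjusted p = 0.0476). The mast cell proteases Mcpt4 and Cma1 stood at −0.90 ± 0.52 and −0.89 ± 0.46, and the fibroblast genes Thy1 and Thbs2 at −0.89 ± 0.44 and −0.83 ± 0.47. Of 37 muscle genes 24 lay below Control, with a median of −0.11. In limma 0 of them were called (2 higher and 0 lower at an unadjusted p under 0.05). Against most of that list, Myh3, an embryonic muscle myosin, stood at 1.79 ± 0.70 (adjusted p = 0.339), its highest value being −0.07 in delta rat 4.

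Marker sums of other cell types varied between rats, and their ranges overlapped between the groups. The fibroblast markers summed to 41.8 to 61.2 times the 75th percentile in delta rats and 54.2 to 87.5 times in Control rats, all 6 lower. The macrophage markers summed to 12.8 to 18.1 in delta rats and 17.3 to 23.0 in Control rats, all 5 lower, and the T cell markers to 0.493 to 1.11 in delta rats and 0.468 to 0.975 in Control rats, with 4 of 6 higher. No defining marker of these types was below background on all 10 arrays. The gastric trefoil peptide gene Tff2 varied from 0.0115 to 4.87 times the 75th percentile in delta rats and from 0.0111 to 12.3 times in Control rats. Of 7 gastric and intestinal markers on the array 3 were above background on all 10. All 6 that were tested were lower in delta rats, with none called, and the sum over the 7 had a median of 0.577 in delta rats and 3.03 in Control rats. The part of these differences in cell content in the results above was not tested.

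**Figure D4:**
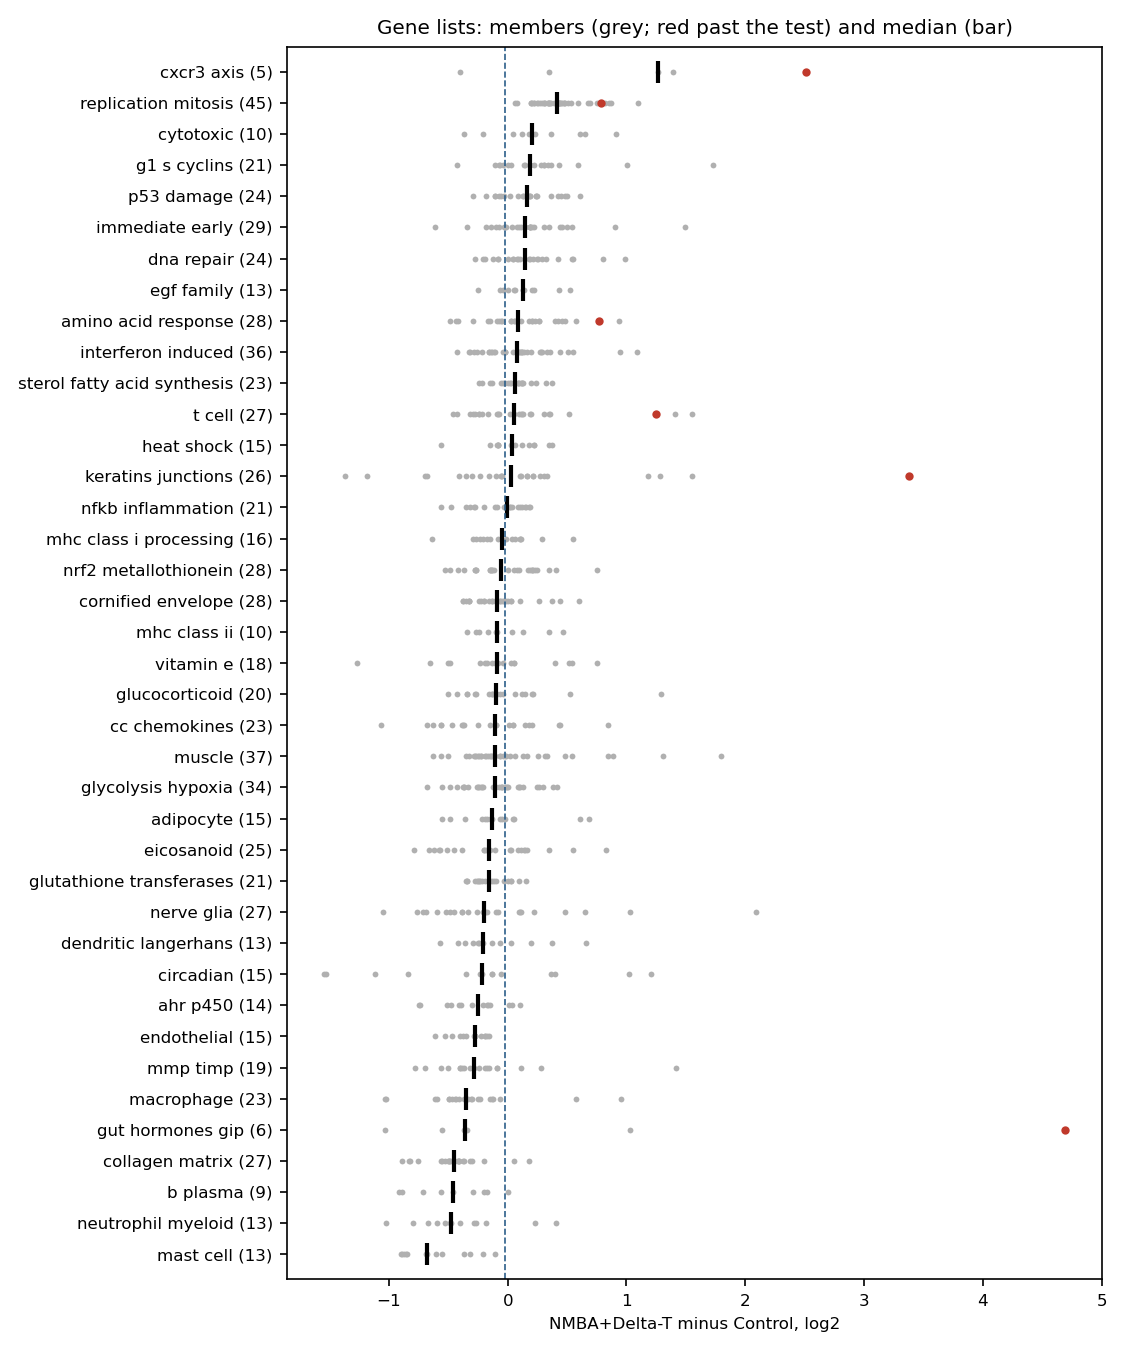
NMBA+Delta-T minus Control difference (log2, x axis) of every tested member of 39 gene lists (rows, number of members in brackets), with members in grey, those past the test in red and the list's median as a black bar. The dashed line is the median over all genes tested, −0.03. The replication and mitosis list lies entirely above 0 and the mast cell and endothelial lists entirely below it.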

How the data were processed

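The array files hold scanner output as fluorescence intensity, with background subtraction and spatial detrending but no scaling across arrays, per the file headers. Agilent Feature Extraction was version 11.5.1.1 per the file headers and 10.7 per the submitters' processing notes. A deposited value table on a log2 scale followed the same arrays and served as an alternative. From the scanner files, spots flagged as outliers were dropped, log2 processed signals were averaged per probe, and the array's 75th percentile over spots was subtracted. Of 30367 probes, 18355 matched 1 gene symbol through a RefSeq accession; the array design was annotated on rn4 and the names on GRCr8. Probes well above background on at least 5 of 25 arrays were kept and each gene took its brightest, leaving 12343 genes. Group means of all 25 arrays were fitted with limma 3.58.1 (20 residual degrees of freedom), two-sided. The number of arrays limits the precision. Nothing states separate housing or extraction of the rats, so p-values measure the spread between these samples.

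The members and lists were chosen with earlier results of these data known. The 39 lists were written from textbook knowledge of the tissue, and their counts and medians are descriptions. Genes were named by rule: the 15 largest rises and falls among called genes without overlap, up to 4 called members of a list or 2 members as values where none passed, and a set of genes followed from the NMBA comparison. Nfkb1 had no named probe, and Ptgs2 was well above background on 0 and Nos2 on 1 of 25 arrays, so these were not tested. Same-numbered rats did not deviate together (r from −0.375 to 0.197 between delta and Control rats), so rat numbers were not treated as pairs. Alternatives were normexp correction (offset 50, on median spot and background signals in place of mean spot signals), quantile and median scaling, the deposited table, filters, probe averaging, the groups alone, an intensity trend, slide as a block, rat number as a block, and each rat left out. The fits were tested on simulated data. Sequences are from RefSeq (GRCr8) and were matched by symbol.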

Additional observations from a re-analysis of the deposited data

Results flagged for a closer look

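Single rats stood apart within their group of 5 in 10 of the 154 gene and group combinations checked, 3 among delta rats and 7 among Control rats, by a gap test that chance alone passes in about 1 of 20 groups. Among delta rats these were Ddias in delta rat 2 (−4.203), Phactr3 in delta rat 4 (−6.003) and Krt14 in delta rat 3 (4.109), each below the other delta rats. Among Control rats they were Klk1c8 in rat 2 (−6.579), Ccl22 in rat 2 (−5.695), Ccnd1 in rat 2 (1.52), Phactr3 in rat 2 (−5.671), C3h20orf144 in rat 1 (−6.74), Cxcl11 in rat 1 (−6.021) and Krt13 in rat 1 (4.415), each below the other Control rats. Control rats 1 and 2 thus held all 7 of the low Control values.

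In the contrast of delta with NMBA rats (log2, delta minus NMBA), 19 of the 77 named genes checked passed. For these the difference from Control was of another size in delta rats than in NMBA rats. It was lower in delta rats for Capn9 (−0.81), Adm2 (−0.63), C3h20orf144 (−1.31), Cxcl9 (−2.20), Cxcl11 (−1.98), Isg15 (−1.28), Irf7 (−1.02), Cd3d (−1.93), Cd3e (−1.91), Gzmb (−1.98), Ctsw (−1.90), Cd74 (−0.94), Mgmt (−0.59), Krt4 (−0.69) and Marco (−1.23). It was higher in delta rats for Slc35d1 (0.79), Zbtb16 (1.99), Gria2 (1.64) and Myh3 (2.66). Over all genes tested this contrast called 307 of 12343 (2.49%), and 13 to 566 with 1 rat left out. No slide held both delta and NMBA rats. Genes followed from the NMBA comparison were chosen with those NMBA rats known. Their contrasts, and so the count of 19 in 77, are not independent of that choice.

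Probes without a gene symbol were outside the comparison. Of 8538 such probes that passed the background filter, 22 were called in delta rats against Control, 16 higher and 6 lower, and the largest difference was 2.47.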

How the results depend on the processing

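With 5 rats a group and 1 slide shared, most of the 24 calls rest on rats of different slides, and dim probes have less signal over background than bright ones. Over 25 alternatives Gip and Krt82 passed in all, Fgf13 in 24, and Atp13a5, Tnfrsf18, Cfap68 and Wfdc3 in 23, while Cxcl10 passed in 9, Ddias in 8, Slc35d1 in 7, Adm2 in 6 and Fabp12 in 5. None of the 24 changed sign. Where a cause is not given, it was not tested.

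For delta against Control, the count of called genes was 57 with normexp (41 higher, 16 lower; 18 of the 24 among them), 51 with slide as a random block (within-slide correlation −0.0311), and 4 with slide as a fixed block, where only 3 rats carry the contrast: Gip, Krt82, Fgf13 and Plpp1, the last named after its values were seen. Fitting only the groups compared called 18, of which 8 were among the 24 (11 higher, 7 lower). Leaving out 1 rat gave 15 to 81. Alternatives chosen after seeing the data gave 3 with the delta rats of slide 2 only, 10 with those of slide 1 only and 20 with the percentile taken over averaged probes. The other settings gave 17 to 31.

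For delta against NMBA, 307 in the main setting, it was 477 with median centring, 961 without a filter, 71 with only the groups compared, 1 with slide as a fixed block (Plpp1) and 742 as a random block, 13 to 566 with 1 rat left out, 13 with the delta rats of slide 2 only and 143 with those of slide 1 only.

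With rat number as a replicate block 17 genes were called against Control, 16 of them among the 24, and 161 against NMBA. The numbers did not pair the rats, and each delta rat failed to correlate best with its own number among Control rats.

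The sign of 15 genes changed in some settings; none of these genes was called. With normexp Mki67 was −0.20, Nqo1 0.14 and Sec14l2 0.038; with quantile normalization Krt14 was 0.17. With slide as a fixed block Ctsw was −0.60, Cxcr3 −0.013, Irf7 −0.22, Cd3e −0.57, Ccnd1 −0.058, Rela −0.48, Nqo1 0.064, Krt4 0.23, Krt13 0.29 and Krt14 0.43. With 1 rat left out Sec14l2 ranged from −0.20 to 0.076, Cd3e from −0.079 to 0.37, Mki67 from −0.15 to 0.31 and Gria2 from −0.40 to 0.051. With the delta rats of slide 2 only Cxcr3 was −0.44, Irf7 −0.0095, Cd3d −0.15, Cd3e −0.41, Zbtb16 0.048 and Rela −0.096; with those of slide 1 only Mki67 was −0.32, Gria2 0.085 and Sec14l2 0.089. Of the 1919 values in 77 named genes, 1700 kept their sign and their side of the threshold, 180 no longer passed, 5 newly passed and 34 changed sign.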
